A study of Mus musculus with 13 samples.

Results

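The potassium channel gene family of the mouse heart was examined in bulk RNA-seq of whole hearts, over every protein-coding gene whose symbol has the form Kcn followed by 1 to 3 letters and a number or no number. The rule, a pattern in the symbol, selected 93 of the 55471 genes in the table. Of the 93 members, 50 passed the filter on low counts and were tested, and 43 were too low to test. By symbol, the members are 30 pore subunits of voltage-gated channels (18 tested), 10 modifier subunits that do not form a channel alone (3 tested), 15 inward rectifiers (9 tested), 14 two-pore channels (5 tested), 8 calcium- or sodium-activated channels (7 tested) and 16 accessory subunits (8 tested).

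The hearts came from 3 groups: 4 libraries of R502W mice given mavacamten at 2.5 mg/kg/day in their water for 21 weeks, 4 of R502W control mice and 5 of WT control mice. R502W is an amino acid change in cardiac myosin-binding protein C (cMyBP-C), a thick-filament protein whose variants cause hypertrophic cardiomyopathy, and mavacamten is an inhibitor of cardiac myosin. The design text gives an age of 24 weeks for all groups, whereas the extraction protocol speaks of hearts 3 and 18 weeks old. Zygosity and sex are not in the labels used here, and no treated WT group was analysed here, so a drug effect in WT hearts cannot be read from these libraries. The labels do not say that each library is a separate mouse. A p-value here therefore weighs a difference between groups against the scatter of libraries, which may be technical in part.

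Potassium channels let potassium leave the heart muscle cell, which ends each action potential and holds the resting voltage. In the mouse ventricle the early, fast repolarization is carried mainly by transient outward and slowly inactivating delayed rectifier channels of the voltage-gated class. Inward rectifiers set the resting voltage. Channels gated by ATP, acetylcholine or calcium adjust this to the state of the cell, and accessory subunits change the traffic and gating of the pores. Reduced potassium currents and a longer action potential are a known feature of hypertrophied heart muscle.

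Each library held 15350622 to 19361103 expected counts. Cardiomyocyte transcripts were abundant in all 13 libraries, as the tissue label says. The summed level of 6 markers was 42115 to 58385 CPM (counts per 1000000 counts of the library) in R502W mavacamten hearts, 46004 to 50699 CPM in R502W control hearts and 31625 to 45421 CPM in WT control hearts. Several libraries stood apart in markers of other tissues. In WT control replicate 2 the sum for 6 T cell and thymus markers was 327 CPM, against at most 5.98 CPM in each other library. That library also had the lowest cardiomyocyte sum, 31625 CPM. Of the 6 markers, Myh6 (18136 CPM) and Ryr2 (534 CPM) were lowest in that library, whereas Tnnt2, Tnni3, Actn2 and Pln were not. The sum of 4 airway and lung markers was 139 CPM in R502W mavacamten replicate 1 and 353 and 557 CPM in WT control replicates 2 and 3, against at most 22.2 CPM in each other library. The sum of 2 brown fat markers reached 252 CPM (R502W mavacamten replicate 4), 197 CPM (R502W control replicate 1) and 190 CPM (WT control replicate 3), against 15.6 to 49.5 CPM in the others. Bmp10, a growth factor of the atria, was low in 3 libraries, at 6.23 CPM (R502W mavacamten replicate 3), 1.57 CPM (R502W control replicate 1) and 8.33 CPM (WT control replicate 3), where the other atrial markers were not all low. In bulk tissue, fewer cells of a type and less RNA per cell cannot be told apart.

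Of the 4 members called between untreated R502W and WT hearts below, 3 have a window in the set of RefSeq promoters used here (GRCm38.p6), which does not cover every member. These are shown because 2 of the genes were higher and 1 was lower in R502W control hearts. Each window runs 5′ to 3′ on the gene's strand from 250 bases before the annotated start to 50 bases after it. Capitals mark the GC box GGGCGG and the cyclic AMP response element half-site TGACG, read on either strand. The windows lie at chr7:46396218-46396517 on the plus strand (Kcnc1), chr15:79505192-79505491 on the minus strand (Kcnj4) and chr6:126740625-126740924 on the minus strand (Kcna6).
Kcnc1: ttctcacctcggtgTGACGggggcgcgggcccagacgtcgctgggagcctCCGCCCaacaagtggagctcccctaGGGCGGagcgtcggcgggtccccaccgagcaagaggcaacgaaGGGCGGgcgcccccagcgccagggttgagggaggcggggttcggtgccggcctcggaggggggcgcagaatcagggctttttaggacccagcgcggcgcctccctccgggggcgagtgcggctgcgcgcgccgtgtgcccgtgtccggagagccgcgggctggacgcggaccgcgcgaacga
Kcnj4: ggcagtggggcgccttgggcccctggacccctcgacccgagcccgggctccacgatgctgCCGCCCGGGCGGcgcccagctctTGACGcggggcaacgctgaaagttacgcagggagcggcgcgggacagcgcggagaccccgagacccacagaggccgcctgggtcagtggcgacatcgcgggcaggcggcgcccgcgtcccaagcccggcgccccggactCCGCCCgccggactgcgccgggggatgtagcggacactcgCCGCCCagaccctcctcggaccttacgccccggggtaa
Kcna6: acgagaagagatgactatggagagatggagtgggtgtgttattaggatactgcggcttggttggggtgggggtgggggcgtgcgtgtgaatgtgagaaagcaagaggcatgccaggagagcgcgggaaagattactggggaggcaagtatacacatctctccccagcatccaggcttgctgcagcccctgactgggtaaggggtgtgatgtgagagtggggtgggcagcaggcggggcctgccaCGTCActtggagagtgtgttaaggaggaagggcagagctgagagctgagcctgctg

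The windows differ in base composition. G and C made up 74.7% of the Kcnc1 window and 76.0% of the Kcnj4 window, each with 41 CpG dinucleotides, against 58.3% and 8 CpG in the Kcna6 window. The median was 58.0% over the 93 windows of the 68 members in the table and 52.7% over all 32841 windows. The GC box was found at 3 places in the Kcnc1 window and 4 in the Kcnj4 window, and at 0 places in the Kcna6 window. It was present in 47.3% of the members' windows and in 35.7% of all windows. Each of the 3 windows held the half-site at 1 place, as did 19.4% of the members' windows and 20.8% of all windows at 1 or more places. The other motifs searched on both strands were the E-box CACGTG, the D-box TTATGNAA, the TATA box TATAAA, the full response element TGACGTCA, which holds the half-site, the GATA motif AGATAA, the MEF2 motif and the CCAAT box. None of these was found in the 3 windows. A match in these letters is a description of the sequence and shows no binding.

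The heart's potassium channel RNA was concentrated in a few genes. Levels between genes were compared as CPM per kilobase of exonic length. Kcnk3, a two-pore channel that carries a background potassium current, was the highest member in each group, at 59.9 ± 7.13 CPM per kilobase in R502W mavacamten hearts (SD, n = 4), 61.0 ± 4.00 in R502W control hearts (SD, n = 4) and 52.7 ± 5.68 in WT control hearts (SD, n = 5). In every group its lowest library was above the highest library of the gene in second place, although in R502W mavacamten hearts Kcnip2, just below, reached 50.5 CPM per kilobase in 1 library, above the lowest of Kcnk3 (49.7). The next 3 places were held in each group by the same genes in a different order. They are Kcnj11, the pore of the cardiac ATP-sensitive channel, Kcnip2, the accessory subunit of the transient outward channel, and Kcng2, a modifier subunit of voltage-gated channels.

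In WT control hearts these 3 were at 37.5 ± 5.14, 34.9 ± 6.05 and 34.3 ± 3.99 CPM per kilobase (SD, n = 5), and the library ranges of neighbours in that order overlapped. Kcnj3 followed at 31.3 ± 6.26, Kcnh2 at 24.6 ± 1.56 and Kcnj5 at 20.2 ± 3.69 CPM per kilobase. The top 4 genes held 50.7% of the per-kilobase sum of all members in WT control hearts, and the top 9 held 82.8%. The same first 9 places added up to 82.7% in R502W mavacamten hearts and 82.6% in R502W control hearts. In WT control hearts, a second gap without overlap lay between Kcnq1 in 9th place, at 12.2 ± 0.52 CPM per kilobase, and Kcnj2 in 10th place, at 6.82 ± 1.32 CPM per kilobase. The summed level of all members was 1380 ± 141 CPM in R502W mavacamten hearts (SD, n = 4), 1334 ± 107 CPM in R502W control hearts (SD, n = 4) and 1313 ± 117 CPM in WT control hearts (SD, n = 5), so the groups' sums lay within the spread of their libraries.

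**Figure D1:**
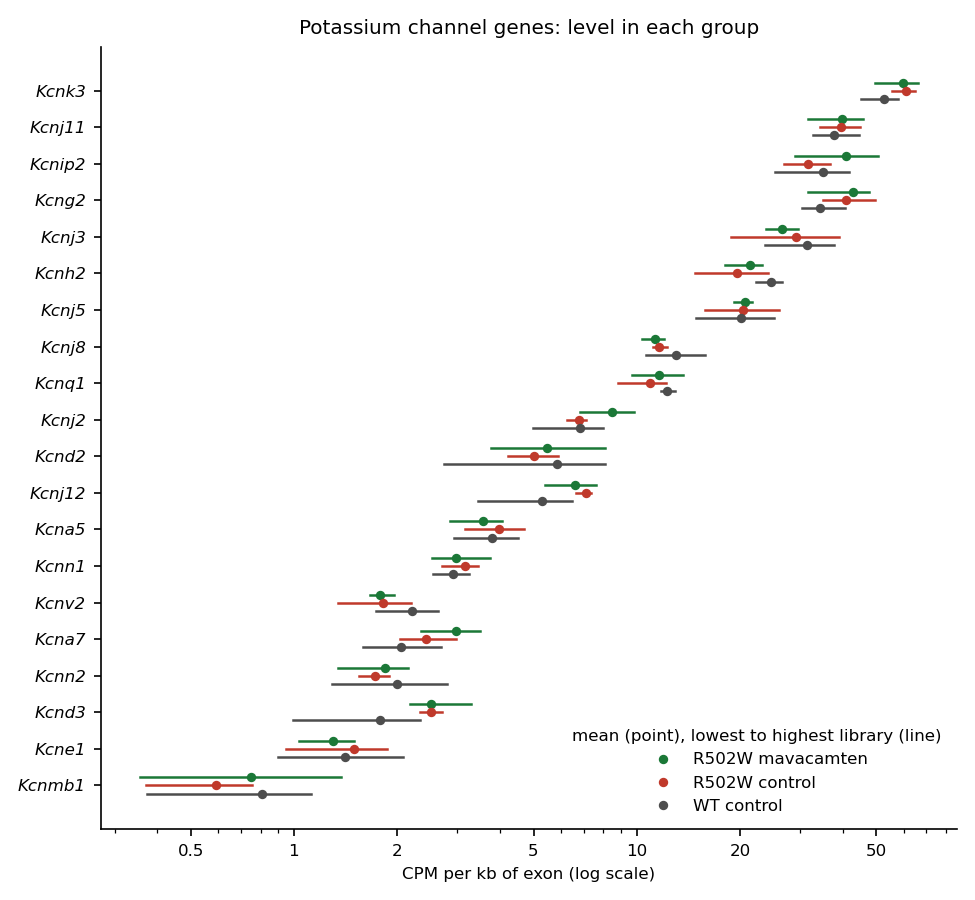
Level of the higher potassium channel genes described here, in CPM per kilobase of exonic length on a log axis, in order of the WT control mean, with a point for each group mean and a line from the lowest to the highest library. Kcnk3 stands highest in all groups, at 59.9 CPM per kilobase in R502W mavacamten hearts, 61.0 in R502W control hearts and 52.7 in WT control hearts, and the 3 groups lie close together gene by gene.

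The first comparison asked which channel genes differ between untreated R502W and WT hearts. Of the 50 tested members, 3 were higher and 1 was lower in R502W control hearts. Higher were Kcnc1, Kcnj4 and Kcnj14, by 3.90-fold, 3.33-fold and 2.36-fold, and lower was Kcna6, at 0.420 of the WT level. All 4 are low in the heart, under 5 CPM in each library. In the same comparison the genes that carry the main potassium currents of heart muscle gave no call. The 4 called members are 8% of those tested, beside 12.4% of all 15000 genes tested (8.63% higher and 3.75% lower), so the family was not called more often than genes in general. The test was edgeR's quasi-likelihood test with Benjamini-Hochberg adjustment over all genes tested, and called means an adjusted p under 0.05.

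Kcnc1 (chr7:46396497-46438704, plus strand, GRCm38) encodes a fast voltage-gated pore known from rapidly firing neurons. It was at 4.12, 4.61, 3.49 and 2.49 CPM in R502W control hearts and at 0.587, 0.66, 0.845, 1.42 and 1.13 CPM in WT control hearts. All 4 R502W control libraries lay above all 5 WT control libraries. The log2 fold change was 1.96 ± 0.28 (SE; adjusted p = 0.00103 by edgeR). These levels rest on 48 to 83 counts per library in R502W control hearts and 8 to 27 counts in WT control hearts.

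Kcnj4 (chr15:79483714-79505241, minus strand) encodes a strong inward rectifier of the same class as the cardiac Kcnj2 and Kcnj12. It was at 0.457, 0.945, 0.675 and 0.932 CPM in R502W control hearts and at 0.293, 0.12, 0.181, 0.21 and 0.315 CPM in WT control hearts. The groups did not overlap, and the log2 fold change was 1.74 ± 0.41 (SE; adjusted p = 0.0160 by edgeR). Behind these levels stand only 7 to 18 counts per library in R502W control hearts and 2 to 5 counts in WT control hearts. Counts of 10 or more fell only in R502W control replicates 2, 3 and 4 and in R502W mavacamten replicate 1. Kcnj4 thus passed the count filter mainly through the group where it is high, and its call is a description that gives no independent support. The call was lost without the count filter, where the adjusted p was 0.0611.

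Kcnj14 (chr7:45816460-45824782, minus strand) encodes another strong inward rectifier of that class. Its levels were 1.96, 2.56, 2.14 and 2.17 CPM in R502W control hearts and 0.953, 0.42, 1.57, 0.787 and 0.945 CPM in WT control hearts, again with no overlap. The log2 fold change was 1.24 ± 0.35 (SE; adjusted p = 0.0344 by edgeR). This call was the least stable of the 4: leaving out 1 library ended it in 10 of 13 fits, with log2 fold changes between 1.01 and 1.51 and adjusted p between 0.0191 and 0.111 over the 13. It was kept only without R502W mavacamten replicate 3 or 4 or WT control replicate 3.

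Kcna6 (chr6:126708329-126740674, minus strand) encodes a delayed rectifier pore known mainly from the nervous system. It was at 1.04, 1.06, 0.844 and 1.45 CPM in R502W control hearts and at 1.91, 1.8, 3.08, 3.57 and 2.77 CPM in WT control hearts. The groups did not overlap, with the gap between 1.45 CPM in R502W control hearts and 1.8 CPM in WT control hearts. The log2 fold change was -1.25 ± 0.26 (SE; adjusted p = 0.00826 by edgeR). Its neighbours in the same gene cluster, Kcna1 at 61.9 kilobases and Kcna5 beyond it, gave no call, with log2 fold changes of 0.56 ± 0.39 and 0.07 ± 0.15 (SE). On chromosome 7, Kcnj11 lies between Kcnj14 and Kcnc1, at 269 and 296 kilobases, and its log2 fold change was 0.07 ± 0.12 (SE).

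**Figure D2:**
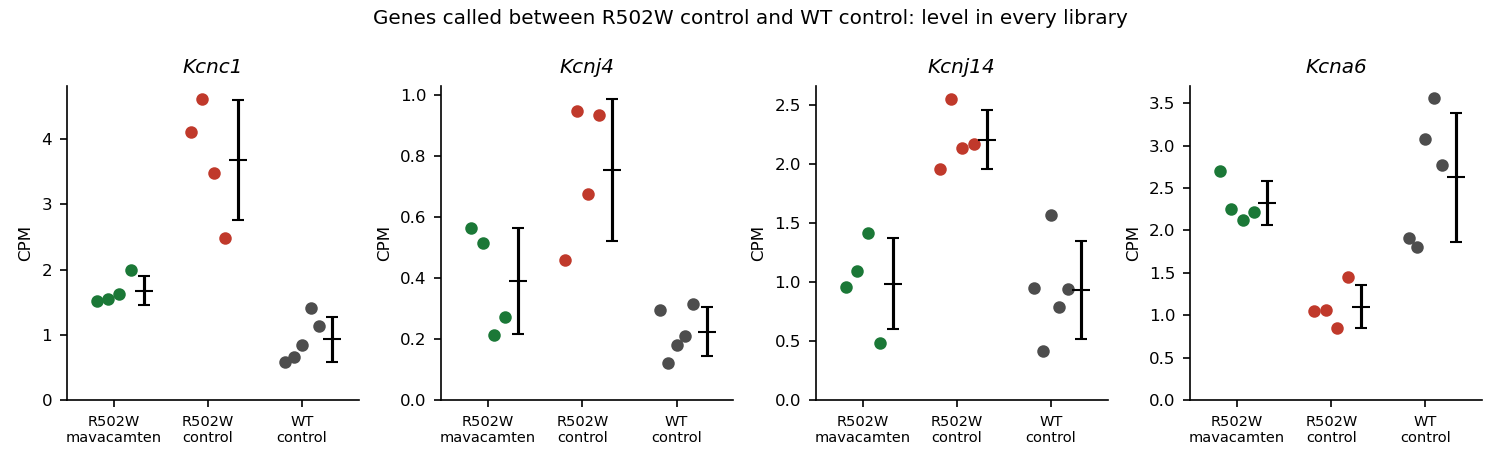
Level in CPM of 4 members called between R502W control and WT control hearts, by group, each point 1 library, with the group mean ± SD beside the points and R502W mavacamten, R502W control and WT control from left to right. Kcnc1, Kcnj4 and Kcnj14 are highest and Kcna6 is lowest in R502W control hearts.

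Kcnc1 and Kcna6 are best known from neurons. The neuron marker Tubb3 was at 4, 1.61, 1.77 and 4.11 CPM in R502W mavacamten hearts, 3, 1.78, 2.31 and 1.29 CPM in R502W control hearts and 1.47, 3.78, 5.92, 1.99 and 1.13 CPM in WT control hearts, and the groups overlapped. Snap25, a defining neuron marker, was at 0 in 3 R502W mavacamten, 3 R502W control and 2 WT control libraries. A list of 5 Schwann cell and nerve markers, all tested, summed to 11.4 to 30.8 CPM in R502W mavacamten hearts, 10.7 to 20.1 CPM in R502W control hearts and 15.3 to 31.8 CPM in WT control hearts, and 1 of the 5 was called lower in R502W control hearts. Within it Sox10, a transcription factor of Schwann cells, was at 2.87, 1.48, 1.35 and 0.973 CPM in R502W mavacamten hearts, 0.784, 1, 1.07 and 1.4 CPM in R502W control hearts and 2.49, 3, 2.41, 2.36 and 2.14 CPM in WT control hearts. Like Kcna6, Sox10 was lower in all R502W control libraries than in all WT control libraries. In the skeletal muscle list, 1 of 4 genes was tested, Acta1, which heart muscle also makes, and it was called higher in R502W control hearts. Acta1 was at 471 to 1390 CPM in R502W mavacamten hearts, 1230 to 1463 CPM in R502W control hearts and 106 to 174 CPM in WT control hearts. The untested genes of that list were near the floor in every library, with Myh4 at most 0.06 CPM, Myh2 at most 0.315 CPM and Tnnt3 at most 1.73 CPM. The part of nerve or skeletal muscle in the values of the called members was not tested.

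Called genes included, 8 of 50 members (16%) had groups that did not overlap, beside 17.7% of all genes tested. Of those not called, Kcnj12 had a log2 fold change of 0.43 ± 0.15 (SE; adjusted p = 0.0754 by edgeR) and Kcnd3 of 0.50 ± 0.19 (SE; adjusted p = 0.106 by edgeR). Without WT control replicate 2, the library high in T cell markers and with the lowest summed cardiomyocyte level, they were 0.28 and 0.31. The median log2 fold change was -0.08 over the tested members and -0.01 over all genes tested. Members averaging 10 CPM or more gave 0 calls of 17, beside 17.7% of all genes at that level. Members under 10 CPM gave 4 calls of 33, 12.1%, beside 5.17% of all genes at that level. Kcnj4, 1 of these 4, passed the count filter mainly through the group where it is high. Of the 17 members at 10 CPM or more, 4 had an unadjusted p under 0.05 by edgeR, beside 3205 of all 8641 genes at that level. DESeq2 called 1 of the 17 members, Kcnh2.

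The fixed set of cardiac current genes held 16 members, all of which were tested. None was called between R502W control and WT control hearts by edgeR, beside 12.4% of all genes tested. An unadjusted p under 0.05 was found for 4 of the 16, beside 4361 of all 15000 genes. The 95% confidence interval of the fold change lay within 1.5-fold either way for 9 of the 16 and within 2-fold for all 16. Over all 15000 genes these counts were 7489 and 11533. Differences above 2-fold in the 16 genes therefore lie outside the intervals, while a missed p does not show that the levels are alike.

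Among the transient outward channel genes, Kcnd2, a pore subunit, was at 21.7, 23.6, 30.4 and 27.6 CPM in R502W control hearts and 35.1, 14.1, 25.3, 35 and 41.5 CPM in WT control hearts. The WT control libraries spanned the R502W control values, with WT control replicate 2 lowest, and the log2 fold change was -0.23 ± 0.28 (SE). Kcnd3, the other pore, was at 23.3, 25.9, 24.7 and 22.4 CPM in R502W control hearts and 17.9, 9.54, 16, 22.3 and 19.7 CPM in WT control hearts. The closest values were 22.4 CPM in R502W control hearts and 22.3 CPM in WT control hearts, so the groups barely failed to overlap. Kcnip2 was at 93.2, 101, 127 and 118 CPM in R502W control hearts and 144, 129, 87.8, 118 and 127 CPM in WT control hearts. Kcna4, the pore of the slower transient outward current, was at 1.57, 0.945, 0.957 and 1.97 CPM in R502W control hearts and 1.1, 1.5, 1.27, 1.36 and 0.756 CPM in WT control hearts. Both of these overlapped widely, with log2 fold changes of -0.14 ± 0.16 for Kcnip2 and 0.18 ± 0.29 for Kcna4 (SE).

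Kcna5 carries a component of the slowly inactivating delayed rectifier current of the mouse ventricle. It was at 10.3, 9, 12.9 and 13.4 CPM in R502W control hearts and 12.9, 11.7, 10.7, 8.39 and 10.5 CPM in WT control hearts, with a log2 fold change of 0.07 ± 0.15 (SE). The groups overlapped.

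Kcnq1 and its accessory subunit Kcne1 form the slow delayed rectifier channel of larger mammals, and Kcnh2 forms the rapid one. Kcnq1 was at 36.1, 46.4, 49.8 and 47 CPM in R502W control hearts and 53, 48.2, 48.8, 48.8 and 51.7 CPM in WT control hearts, with a log2 fold change of -0.16 ± 0.11 (SE). Kcne1 was at 4.51, 3.06, 6.02 and 5.64 CPM in R502W control hearts and 5.21, 2.88, 3.92, 3.94 and 6.68 CPM in WT control hearts, with a log2 fold change of 0.09 ± 0.25 (SE). For Kcnq1, 3 of 4 R502W control libraries lay below all WT control libraries. Kcnh2 was at 71.7, 100, 91.3 and 117 CPM in R502W control hearts and 119, 108, 121, 129 and 119 CPM in WT control hearts, with 1 R502W control library inside the WT control range. Its log2 fold change was -0.33 ± 0.12 (SE; adjusted p = 0.0941 by edgeR). It was called by DESeq2 (log2 fold change -0.35, adjusted p = 0.0434), and by edgeR without R502W control replicate 4 (-0.44, adjusted p = 0.0386).

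The inward rectifiers Kcnj2 and Kcnj12 hold the resting voltage of ventricular muscle. Kcnj2 was at 37.5, 37.7, 38.8 and 34.1 CPM in R502W control hearts and 40.9, 27.1, 32, 42.2 and 43.3 CPM in WT control hearts, with a log2 fold change of -0.00 ± 0.14 (SE). Kcnj12 was at 18.3, 20, 20.2 and 19.8 CPM in R502W control hearts and 17.8, 9.48, 14.7, 15.3 and 15.4 CPM in WT control hearts. All R502W control libraries lay above all WT control libraries for Kcnj12, and WT control replicate 2 was again lowest. Kcnj4 and Kcnj14, called above, belong to the same class and were far lower: per kilobase, in R502W control hearts, Kcnj2 was at 6.80 ± 0.38, Kcnj12 at 7.12 ± 0.32, Kcnj14 at 0.812 ± 0.092 and Kcnj4 at 0.350 ± 0.108 CPM (SD, n = 4).

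Kcnj3 and Kcnj5 together form the acetylcholine-gated channel of the atria and pacemaker tissue. Kcnj3 was at 158, 202, 98.4 and 150 CPM in R502W control hearts and 137, 123, 194, 196 and 166 CPM in WT control hearts, with a log2 fold change of -0.10 ± 0.19 (SE). Kcnj5 was at 73.9, 121, 76.8 and 110 CPM in R502W control hearts and 94.6, 69.7, 99.4, 118 and 90.9 CPM in WT control hearts, with a log2 fold change of 0.02 ± 0.16 (SE). The groups of both genes overlapped, and the summed level of 6 atrial markers also ranged widely inside groups, at 4265 to 8302 CPM in R502W control hearts and 3830 to 8309 CPM in WT control hearts.

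Kcnj11 is the pore of the ATP-sensitive channel in heart muscle, and Kcnj8 that of vessels. Kcnj11 was at 126, 149, 141 and 165 CPM in R502W control hearts and 163, 120, 122, 133 and 152 CPM in WT control hearts, with a log2 fold change of 0.07 ± 0.12 (SE). Kcnj8 was at 28.5, 28.5, 31.2 and 29.9 CPM in R502W control hearts and 39.6, 27.1, 27.1, 32 and 40.3 CPM in WT control hearts, with a log2 fold change of -0.17 ± 0.12 (SE). Both overlapped between groups. Kcnk3 was at 220, 249, 244 and 258 CPM in R502W control hearts and 215, 179, 230, 194 and 230 CPM in WT control hearts, with 3 of 4 R502W control libraries above all WT control libraries and a log2 fold change of 0.21 ± 0.10 (SE; adjusted p = 0.181 by edgeR). An annotated transcript on the opposite strand of Kcnk3, Gm9899, averaged 23.1 CPM against 229 CPM for Kcnk3. The library kit kept strand, but the strand setting of the counting is not given, so reads of the overlap cannot be assigned with certainty.

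**Figure D3:**
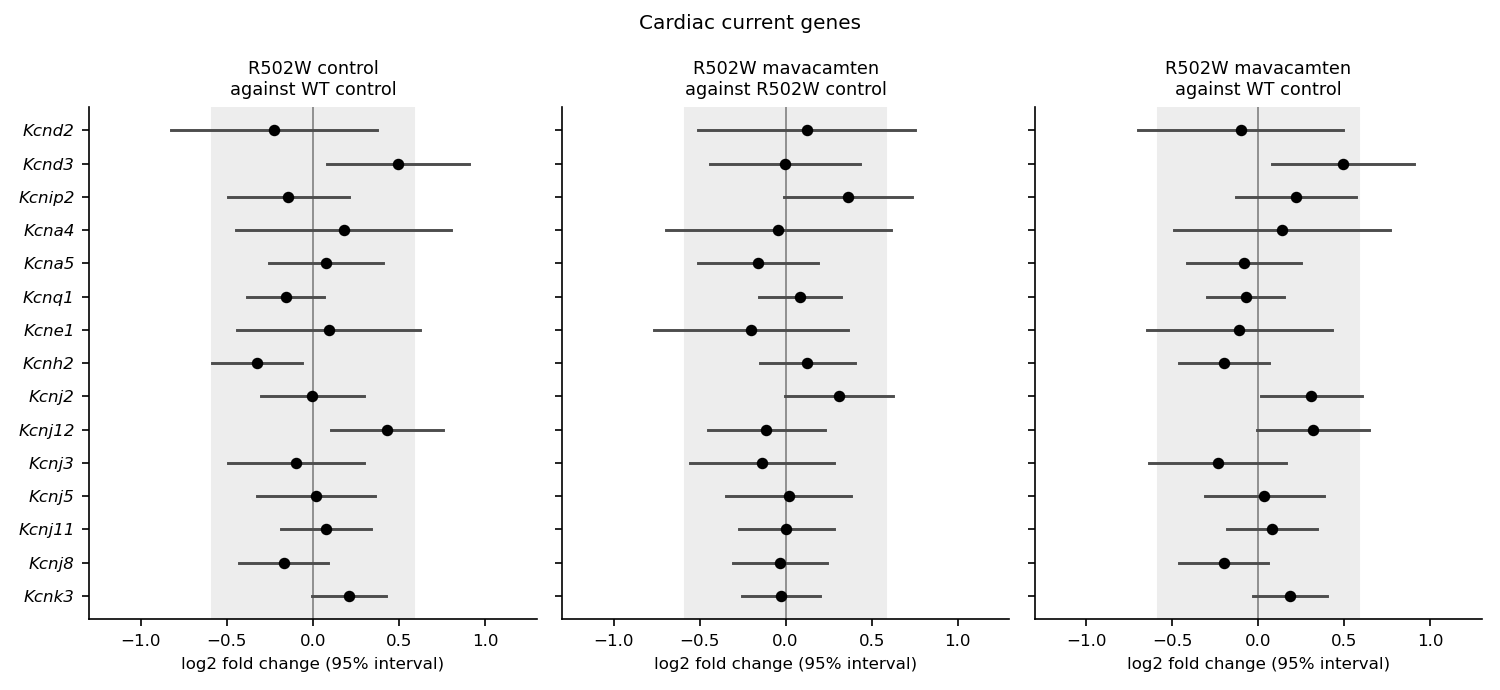
Log2 fold change with its 95% confidence interval for cardiac current genes in each of the 3 comparisons, with the grey band marking changes within 1.5-fold. All intervals lie within 2-fold, and most cross 0.

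The remaining tested members gave no call between R502W control and WT control hearts by edgeR. Among the modifier subunits, Kcng2 was at 105 to 148 CPM in R502W control hearts and 90.8 to 121 CPM in WT control hearts, and Kcnv2, another such subunit, was at 6.86 to 11.2 CPM in R502W control hearts and 8.88 to 13.4 CPM in WT control hearts. Among the calcium-activated channels, Kcnn1 averaged 14.5 ± 1.54 CPM in R502W control hearts (SD, n = 4) and 13.4 ± 1.35 CPM in WT control hearts (SD, n = 5), and Kcnn2 averaged 12.9 ± 1.13 CPM in R502W control hearts and 14.9 ± 4.24 CPM in WT control hearts. The stretch-sensitive two-pore channel Kcnk2 averaged 2.52 ± 0.51 CPM in R502W control hearts (SD, n = 4) and 2.46 ± 0.82 CPM in WT control hearts (SD, n = 5). Over the 8 tested accessory subunits the median log2 fold change was -0.40, over the 7 calcium- or sodium-activated channels 0.11, over the 5 two-pore channels 0.04, over the 9 inward rectifiers 0.02 and over the 18 voltage-gated pores 0.00.

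Several low members followed single libraries. Kcnn4, a calcium-activated channel of T cells and red cells, was at 0.513, 12.1, 1.81, 1.1 and 1.32 CPM in WT control hearts, and Kcnab2, an accessory subunit, was at 1.83, 10.4, 3.26, 2.99 and 2.71 CPM. In both, the high value is WT control replicate 2, the library with 327 CPM of T cell and thymus markers. R502W control hearts held 0.518 to 1.52 CPM of Kcnn4 and 2.07 to 2.87 CPM of Kcnab2, and the log2 fold changes were -1.68 ± 0.83 and -0.76 ± 0.43 (SE; adjusted p = 0.198 and 0.258 by edgeR). The T cell markers' part in these values was not tested.

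Kcnmb1, the subunit of the large calcium-activated channel in smooth muscle, was at 3.26, 2.06, 1.49 and 5.73 CPM in R502W mavacamten hearts, 2.94, 3.17, 2.25 and 1.55 CPM in R502W control hearts and 1.98, 1.56, 4.71, 3.99 and 4.66 CPM in WT control hearts. The summed level of 4 smooth muscle markers (Myh11, Acta2, Tagln and Cnn1), in the same order of libraries, was 300, 181, 169 and 675 CPM in R502W mavacamten hearts, 384, 317, 143 and 169 CPM in R502W control hearts and 227, 201, 477, 512 and 544 CPM in WT control hearts. R502W mavacamten replicate 4 and WT control replicates 3, 4 and 5 were high in both. Kcnab1, an accessory subunit, was likewise highest in these libraries, at 5.03 CPM in R502W mavacamten replicate 4 and at 5.13, 5.35 and 3.59 CPM in WT control replicates 3, 4 and 5. The part of smooth muscle in these values was not tested.

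**Figure D4:**
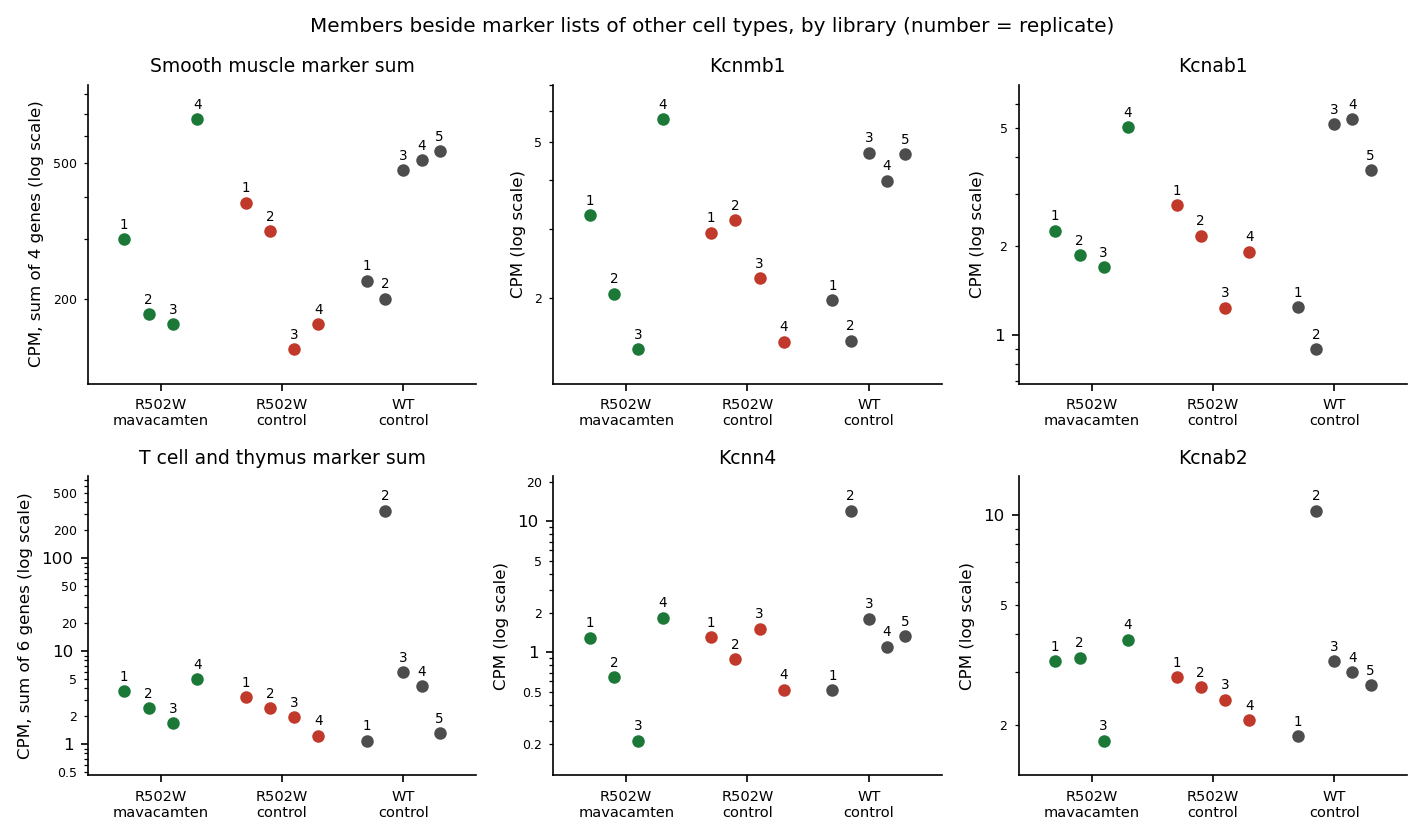
Level of members in CPM by library on log axes, set beside the summed level of marker genes of T cells and thymus or of smooth muscle. Kcnn4 (12.1 CPM) and Kcnab2 (10.4 CPM) are high in WT control replicate 2, where the T cell and thymus sum is 327 CPM, and Kcnmb1 and Kcnab1 are high in the libraries with the highest smooth muscle sums.

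The second comparison asked what mavacamten changed within R502W hearts. No member was called, as 0 of all 15000 genes tested were called by edgeR (0%). DESeq2 called 6 genes, none of them a member. At an unadjusted p under 0.05 there were 4 members of 50 and 525 of all genes (3.5%), and for 3 members (6%) the groups did not overlap, beside 2.87% of all genes. Those 4 are the genes called between R502W control and WT control hearts, and both comparisons use the same 4 R502W control libraries. A shift of those libraries in 1 direction moves the 2 fold changes of a gene in opposite directions, so the values are given side by side and not as separate evidence.

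Kcnc1 was at 1.52, 1.54, 1.63 and 2 CPM in R502W mavacamten hearts, against 2.49 to 4.61 CPM in R502W control hearts, with no overlap and a log2 fold change of -1.13 ± 0.29 (SE; unadjusted p = 0.00157 by edgeR). Kcna6 was at 2.7, 2.25, 2.12 and 2.22 CPM in R502W mavacamten hearts, against 0.844 to 1.45 CPM in R502W control hearts, also with no overlap and a log2 fold change of 1.07 ± 0.27 (SE; unadjusted p = 0.0014 by edgeR). All treated libraries of Kcna6 lay inside the range of WT control hearts, 1.8 to 3.57 CPM, whereas those of Kcnc1 lay above all WT control libraries. Kcnj14 was at 0.957, 1.09, 1.42 and 0.487 CPM in R502W mavacamten hearts, against 1.96 to 2.56 CPM in R502W control hearts (log2 fold change -1.17 ± 0.37, unadjusted p = 0.00734 by edgeR). Kcnj4 was at 0.563, 0.515, 0.212 and 0.27 CPM in R502W mavacamten hearts, against 0.457 to 0.945 CPM in R502W control hearts (log2 fold change -0.94 ± 0.41, unadjusted p = 0.0397 by edgeR). Kcnj14 did not overlap between these groups and Kcnj4 did. The adjusted p was 1 for all 4 genes.

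Among the 16 cardiac current genes none had an unadjusted p under 0.05 for the drug, by edgeR, beside 3.5% of all genes tested. DESeq2 called none of the 16. The 95% confidence interval lay within 1.5-fold for 11 of them and within 2-fold for all 16. Over all 15000 genes these counts were 9520 and 12278. Of the 16 genes, those nearest to that p were Kcnj2 and Kcnip2. Kcnj2 was at 37.2, 48.3, 53.5 and 45 CPM in R502W mavacamten hearts, against 34.1 to 38.8 CPM in R502W control hearts, with 3 of 4 treated libraries above all untreated ones (log2 fold change 0.31 ± 0.15, unadjusted p = 0.0506 by edgeR). Kcnip2 was at 138, 151, 176 and 101 CPM in R502W mavacamten hearts, against 93.2 to 127 CPM in R502W control hearts, again with 3 of 4 treated libraries above (0.36 ± 0.17, unadjusted p = 0.0544 by edgeR).

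A further 12 genes of the set are given here by their treated libraries. Kcnd2 was at 19.3, 30.6, 41.7 and 21.1 CPM and Kcnd3 at 20.9, 22.5, 31.5 and 21.4 CPM in R502W mavacamten hearts, with replicate 3 highest in both. Kcna4 was at 1.41, 1.09, 1.49 and 1.3 CPM, Kcna5 at 8.16, 11.1, 9.98 and 11.6 CPM and Kcne1 at 4.22, 4.83, 3.33 and 4.33 CPM in R502W mavacamten hearts. All 3 overlapped R502W control hearts. Kcnq1 was at 46.6, 48.2, 55.8 and 39.7 CPM and Kcnh2 at 103, 113, 111 and 87.9 CPM in R502W mavacamten hearts, and both overlapped R502W control hearts. Kcnj12 was at 16.7, 21, 20 and 14.8 CPM and Kcnj8 at 28.5, 30.6, 29.9 and 26.4 CPM in R502W mavacamten hearts. Kcnj3 was at 154, 124, 150 and 126 CPM, Kcnj5 at 102, 90, 102 and 93.5 CPM and Kcnj11 at 147, 151, 168 and 117 CPM in R502W mavacamten hearts. Their log2 fold changes for the drug ran from -0.20 for Kcne1 to 0.13 for Kcnh2. Kcnk3 was at 263, 248, 245 and 198 CPM in R502W mavacamten hearts, with a log2 fold change of -0.03 ± 0.11 (SE).

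The third comparison asked which channel genes still differ from WT after treatment. Of the 50 tested members 1 was called (2%), beside 8.21% of all genes tested (5.93% higher and 2.29% lower), and 2 members (4%) had groups without overlap, beside 12.3% of all genes.

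Fold changes rose with exonic length over 14990 genes in this comparison (Spearman rho 0.36; genes do not count as independent samples), and in the genotype comparison (rho 0.34), but not for the drug (rho -0.02). With that length trend removed, the 4 members called between R502W control and WT control hearts were called again, and the count of members called in this comparison was 0.

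Members that were not called but came near it in treated hearts against WT control hearts were Kcnc1 (log2 fold change 0.84 ± 0.29, adjusted p = 0.0867 by edgeR), with no overlap, and Kcna7 (0.53 ± 0.18, adjusted p = 0.0888), a voltage-gated pore of muscle at 7.6, 6.44, 6.8 and 5.14 CPM in R502W mavacamten hearts and 3.81, 3.48, 5.25, 4.04 and 5.86 CPM in WT control hearts. Kcnd3 (0.49 ± 0.19), Kcng2 (0.31 ± 0.14) and Kcnj2 (0.31 ± 0.14) had an unadjusted p under 0.05 and adjusted p between 0.128 and 0.175. Kcnj14 and Kcna6 had log2 fold changes of 0.07 ± 0.37 and -0.18 ± 0.25 (SE), with overlapping groups. On the lower side, Kcnn4 (-1.73 ± 0.83), Kcnv2 (-0.31 ± 0.16), Kcnj8 (-0.20 ± 0.12) and Kcnh2 (-0.20 ± 0.12) were among those with the smallest p, and none was called.

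Proteins that assemble with or regulate these channels were followed through a list of 28 genes outside the symbol rule, of which 24 were tested. Between R502W control and WT control hearts 4 were higher and 1 was lower. These are 20.8% of the list genes tested, beside 12.4% of all genes tested. The list was chosen with earlier results of these data known, so its share is a description. Lrrc55, an auxiliary subunit of the large calcium-activated channel, was at 3.13, 1.89, 1.12 and 2.9 CPM in R502W control hearts and 0.44, 0.42, 0.845, 0.787 and 1.01 CPM in WT control hearts (log2 fold change 1.67 ± 0.36, adjusted p = 0.0098 by edgeR). The pore of that channel, Kcnma1, was at 0.169 to 1.33 CPM in R502W control hearts and 0.42 to 0.945 CPM in WT control hearts and was not called. Akap9, which anchors protein kinase A at the Kcnq1 channel, was at 64.2, 62.8, 57.6 and 57.2 CPM in R502W control hearts and 37, 25.1, 38.4, 40.3 and 39.5 CPM in WT control hearts (0.75 ± 0.14, adjusted p = 0.00506 by edgeR). The scaffold gene Dlg1 was higher by 0.34 ± 0.10 (SE; adjusted p = 0.0386 by edgeR), and Calm2, 1 of 3 genes for the calcium sensor calmodulin, was lower at -0.29 ± 0.09 (SE; adjusted p = 0.041 by edgeR).

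No gene of that list was called for the drug by edgeR, and none had an unadjusted p under 0.05. In R502W mavacamten hearts against WT control hearts, 3 were higher and 1 was lower, 16.7% of the list genes tested, beside 8.21% of all genes. Lrrc55 (1.43 ± 0.36), Akap9 (0.73 ± 0.14) and Irx5 (0.87 ± 0.22) were higher, and Calm2 (-0.36 ± 0.09) was lower, with adjusted p of 0.0302, 0.0111, 0.0297 and 0.0251 by edgeR. Irx5, a transcription factor known in the mouse ventricle as a repressor of Kcnd2, was at 9.23, 11.5, 9.49 and 7.68 CPM in R502W mavacamten hearts and 8.06, 3.18, 5.25, 4.25 and 5.29 CPM in WT control hearts. Kcnd2 itself had a log2 fold change of -0.10 ± 0.28 (SE) there. Abcc8 and Abcc9, the sulfonylurea receptors that pair with Kcnj11 and Kcnj8, were not called in any of the 3 comparisons, with log2 fold changes between -0.06 and 0.40. The calls in this list are from the edgeR fit to all 13 libraries, and their stability under other processing is not given here.

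Of the 43 members too low to test, 8 had no count in any library: Kcna10, Kcng3, Kcnh5, Kcnk15, Kcnk16, Kcnk9, Kcns2 and Kcnv1. A further 10 had 1 to 10 counts in all, 21 had more than 10 and up to 100, and 4 had more than 100. The highest total was 115 counts, for Kcnh3, a voltage-gated pore of the forebrain, of which 59 (3.54 CPM) fell in WT control replicate 2. Kcne2 and Kcne3, accessory subunits of Kcnq1 and Kcnh2 channels, had 12 and 61 counts over all 13 libraries. No difference was testable for these genes at this depth.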

How the data were processed

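Per the labels' protocols, poly(A) RNA from whole hearts was sequenced as strand-specific libraries. The authors deposited expected counts per Ensembl gene on GRCm38. The submitters' processing notes name cutadapt, FastQC, RSEM and DESeq2, with versions and strand setting not given in the sources used here. All 13 columns were matched to samples by library name. Symbols, coordinates and exonic lengths came from GENCODE M21 (55230 of 55471 IDs matched).

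The expected counts, 5.76% of which were fractional, were rounded and tested in R 4.3.3 with edgeR 4.0.16 (limma 3.58.1): filterByExpr (minimum count 10, minimum total 15; 15000 genes), TMM, 1 mean per group over 13 libraries, glmQLFit and glmQLFTest, and Benjamini-Hochberg adjustment over all genes tested, with a threshold of 0.05. Standard errors are the fold change divided by the root of F. CPM uses TMM-scaled library sizes. Totals were 15350622 to 19361103 counts per library. No 2 libraries of a group agreed within sampling noise (chi-square per degree of freedom 7.6 to 109.82 over 22 pairs), and each was kept. The test was also run on simulated counts with changes planted in genes averaging 1 CPM or more, which leaves out members as low as Kcnj4. The outcome is not reported here.

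Values were named for the 16 cardiac current genes and every called member. Fold changes were given for most, not all, of the 5 smallest p in each direction. Members, lists and the rule were chosen with earlier results of these data known, and so was the set of left-out libraries. Since no label ties a library to 1 mouse, p-values weigh a difference between groups against a spread between libraries, which may not be one between mice. Counts in pathway and cardiac lists are descriptions. Alternatives were RLE factors, DESeq2 1.42.0, no filter or a stricter one (1 CPM in 4 libraries), only the groups compared, a block on sample number, removal of the length trend, and left-out libraries. Values of a few members and list genes are not reported here, and the counts include them.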

Additional observations from a re-analysis of the deposited data

Results flagged for a closer look

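In 6 of 150 sets of libraries (1 tested member in 1 group), the highest or lowest library lay apart from the rest by Dixon's criterion at the 95% level, and chance alone sets about 1 in 20 apart. In R502W mavacamten hearts, Kcnab1 was at 5.03 CPM in replicate 4, with the next library at 2.25 CPM. Kcng2 was at 94.6 CPM in the same replicate, the lowest of its group, with the next at 134 CPM. Kcnd3 was at 31.5 CPM in R502W mavacamten replicate 3, with the next at 22.5 CPM. In R502W control hearts, Kcnc2, a voltage-gated pore related to Kcnc1, was at 1.91 CPM in replicate 3, with the next at 1.33 CPM. In WT control hearts, Kcnn4 was at 12.1 CPM in replicate 2, with the next at 1.81 CPM, and Kcnab2 was at 10.4 CPM in the same replicate, with the next at 3.26 CPM. R502W mavacamten replicate 4 had a smooth muscle sum of 675 CPM and WT control replicate 2 a T cell and thymus sum of 327 CPM. The part of either in these values was not tested.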

How the results depend on the processing

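None of the 60 named fold changes of members reversed a call, and of 1302 values under the alternatives 33 ended a call, 3 gained one and 74 changed sign, all 74 among uncalled genes. In R502W control against WT control hearts, 4 members and 1856 genes were called. With a replicate block the counts were 2 and 963, with the replicate block and the length trend removed 2 and 631, and without the 3 libraries low in Bmp10 they were 1 (Kcnc1) and 404. With no filter 2 members were called, and DESeq2 called 6 (3 higher and 3 lower). Leaving out 1 library gave 2 to 4 members (2 without R502W control replicate 2 or 3 or WT control replicate 4) and 866 to 1870 genes (866, 914 and 1040 without R502W control replicates 2, 3 and 1). For the drug, DESeq2 called 6 genes (1 higher, 5 lower) where edgeR called 0. In R502W mavacamten against WT control hearts, 1 member and 1232 genes were called. No member (0) was called with no filter (740 genes), only the 2 groups (216), a replicate block (349), the length trend removed (631), both (165) or the low-Bmp10 libraries left out (86), and leaving out 1 library gave 0 to 2 members (2 without WT control replicate 4, with Kcnc1 gained) and 359 to 1213 genes (359 to 716 without any 1 R502W mavacamten library, R502W control replicate 2 or WT control replicate 3). Genes higher and lower numbered 1294 and 562 for genotype, but 1403 and 1082 with DESeq2 and 778 and 529 with the length trend removed. In treated against WT control hearts they numbered 889 and 343, but 668 and 413 with RLE factors, 1086 and 742 with DESeq2 and 377 and 254 with the trend removed. The genotype call of Kcnc1 was kept in every alternative run. Kcna6 lost its call without the low-Bmp10 libraries (-1.19, adjusted p = 0.0751 by edgeR). Kcnj4 lost it there, with the block and with no filter (adjusted p 0.0554 to 0.0611 by edgeR), and in 4 of the 13 fits without 1 library it fell under the count filter. Nor was Kcnj4 among the members called with the stricter filter or with only the 2 groups compared. Kcnj14 lost its call without the low-Bmp10 libraries, with no filter and with the block, with or without the length trend (adjusted p 0.0527 to 0.0806 by edgeR). The labels state no pairing by sample number. Deviations of same-numbered libraries correlated at -0.323 to 0.253, which with so few libraries per group cannot decide whether the numbers pair hearts. The cause of these changes was not tested. Depth limits the low members: Kcnj4 rests on 2 to 18 counts per library in untreated hearts.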
